A study of Mus musculus with 10 samples.

Results

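The 40 ribosome biogenesis genes described here are a list of named nucleolar and pre-ribosomal genes, taken by symbol from the platform's gene table. The list was chosen with earlier results of these data known, so its shares beside those of all genes are a description. All 40 were found among the 18193 genes with a probe set that carries 1 gene symbol. Each gene was read by its probe set with the highest mean log2 intensity over the 10 arrays. They were grouped by step: 7 genes of RNA polymerase I transcription and the nucleolar hub, 8 of the small nucleolar ribonucleoproteins (snoRNPs), 12 of small subunit processing and 13 of large subunit processing.

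Affymetrix arrays measured total RNA of mouse secondary inducible embryonic fibroblasts of a 129/SvJ x C57/B6 hybrid strain, in which doxycycline switches on the reprogramming factors OSKM (Pou5f1, Sox2, Klf4 and Myc). Each of the 5 groups was read on 2 arrays. Control cells were left uninduced in starvation medium with 0.5% serum for 96 h. Induced cells were kept for 96 h in 15% serum with doxycycline, at a labelled 2 ug/ul, and fall into cohorts by their mean division number of 0, 1, 2, or 3 or more. All groups carry the inducible factors. Induction and serum differ between each induced cohort and the control, and division may differ too, as no label gives the division number of the control. Their shares cannot be told apart. The way the cohorts were separated is not stated in the labels. The labels call replicates biological only for the cohort of 3 or more divisions and for the control, and no label names separate cultures or animals, so the p-values measure the spread between these arrays, which may be technical.

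Ribosomes are assembled in the nucleolus. RNA polymerase I copies the ribosomal DNA into a long precursor, snoRNPs direct its methylation and pseudouridylation, and large sets of assembly factors cut and fold it into the small and the large subunit. The pathway is among the main consumers of energy in a growing cell, it is held down by serum withdrawal, and Myc is a known activator of many of its genes through the E-box sequence.

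On the linear scale the median intensity of an array was 31.4 to 34, and the number of arrays limits the precision. Values below are log2 intensity after quantile normalization, and a gene was called where limma gave a Benjamini-Hochberg adjusted p under 0.05 over all 18193 genes. The arrays of the control and of 3 or more divisions were registered as an earlier set of 4, the other 6 as a later set. No group spans both sets, so in the comparisons of 0, 1 or 2 divisions with the control, and of 3 or more divisions with 2, the set and the group cannot be told apart. The comparison of 3 or more divisions with the control, and those among 0, 1 and 2 divisions, lie within a set. Arrays with the same replicate number deviated together, so values with the replicate number as a block are given beside a count that they move by over 1.5 times.

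All 40 genes were higher after 3 or more divisions than in the starved control. The median log2 change was 1.51, against 0.02 over all genes, and the range was 0.68 to 2.83. Across all genes 15.9% were called higher and 11.7% lower in this comparison. With the replicate block, the 40 genes were again all called, against 20.4% of all genes. Of the 40 genes, 37 changed by at least 2-fold and 10 by at least 4-fold, where 7.87% of all genes reached a rise of 2-fold. On both arrays of 3 or more divisions each of the 40 genes lay above both control arrays, as did 34.6% of all genes. None was called lower in any comparison of the study, where the share of all genes called lower was 11.7% here, 2.06%, 0.302% and 0.077% for 2, 1 and 0 divisions against the control, and 2.52% for 3 or more divisions against 2. In bulk RNA, a change in the number of cells that express a gene and a change in RNA per cell cannot be told apart.

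**Figure D1:**
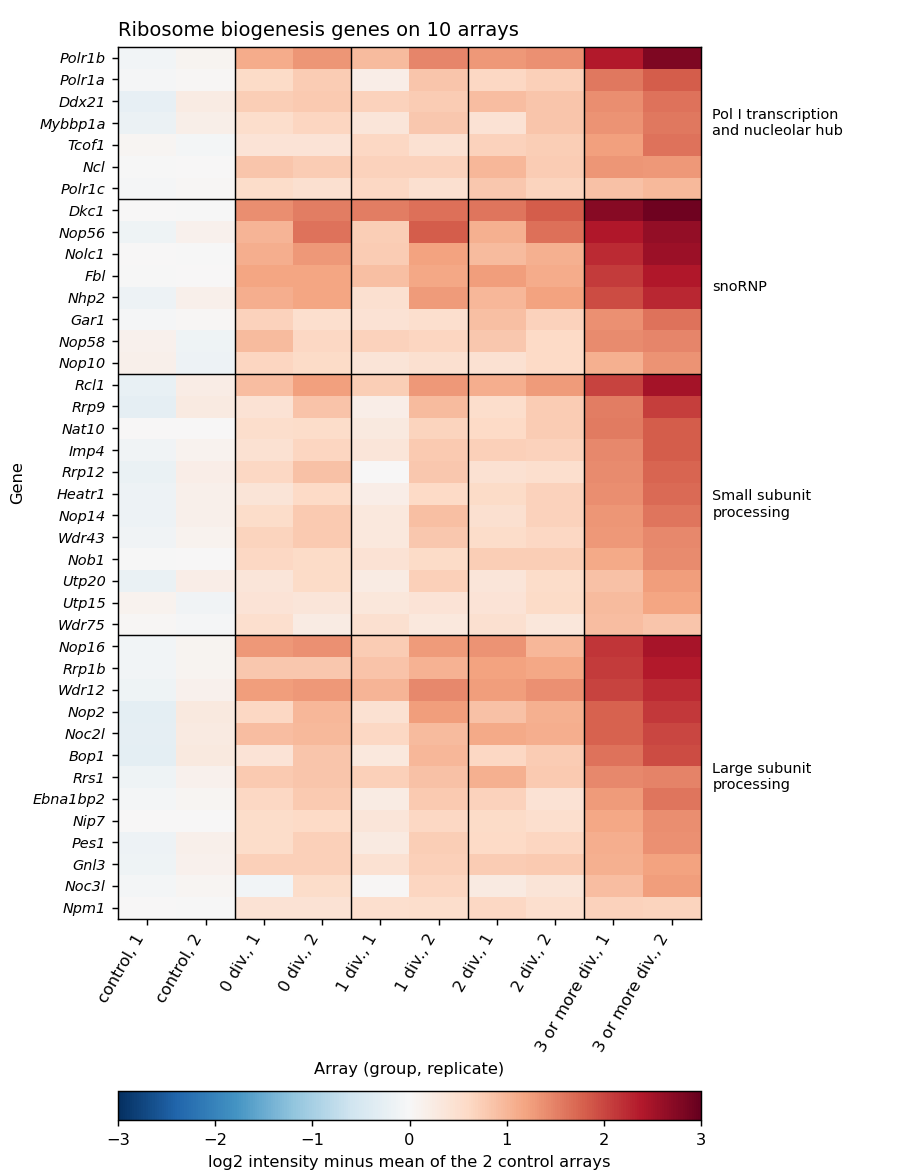
Log2 intensity of the 40 genes (down the page, grouped by step and sorted within it by the change after 3 or more divisions) on the 10 arrays (across, by group and replicate), each as the difference from the mean of the 2 control arrays. The 2 arrays of 3 or more divisions are the darkest in each line, and those of 0, 1 and 2 divisions lie between them and the control, apart from Noc3l on replicate 1 after 0 divisions.

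The start sites of these genes were searched for short motifs in RefSeq windows (build GRCm38.p6) of 250 bases before to 50 after each start, on both strands, with a gene counted where any of its windows held the motif and with overlaps between motifs allowed. Of the 40 genes, 34 had a window, 38 windows in all. The E-box CACGTG was found in 6 of the 34 genes (17.6%), against 8.09% of 27025 genes with a window. Its variant CACGCG was found in 11 (32.4%, against 10.5%), the GC-box GGGCGG in 25 (73.5%, against 38.2%), the Ets-type motif CCGGAAG in 10 (29.4%, against 9.93%) and TATAAA in 2 (5.88%, against 15.7%). The windows of these genes had a median GC content of 57.7%, and all windows 52.7%. The 27025 genes were not limited to those on the arrays or matched by level of expression. The part of base composition and of level of expression in these shares was not tested. These shares are a description of letters in windows, and no binding was measured.

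The 6 stretches with an E-box are shown because Myc is among the induced factors and binds this sequence. They were chosen after the search was seen. Each is printed 5′ to 3′ on the strand of its gene, with the E-box in capitals.
Mybbp1a: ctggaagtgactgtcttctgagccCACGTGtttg
Imp4: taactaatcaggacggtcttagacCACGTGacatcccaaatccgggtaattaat
Utp20: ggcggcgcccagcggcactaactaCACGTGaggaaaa
Wdr43: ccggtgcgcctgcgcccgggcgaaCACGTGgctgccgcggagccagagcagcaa
Nop2: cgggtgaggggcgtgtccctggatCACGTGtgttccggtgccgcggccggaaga
Pes1: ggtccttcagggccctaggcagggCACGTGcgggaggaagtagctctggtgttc

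These stretches lie at chr11:72441343-72441376 (plus strand, Mybbp1a), chr1:34439684-34439737 (plus, Imp4), chr10:88826765-88826801 (minus, Utp20), chr17:71616208-71616261 (plus, Wdr43), chr6:125131799-125131852 (plus, Nop2) and chr11:3963953-3964006 (plus, Pes1). The E-box of Imp4 begins at base -121 from the RefSeq start and that of Nop2 at base -60. In Pes1, Wdr43, Utp20 and Mybbp1a it lies just downstream of the start, beginning at bases 3, 18, 38 and 41. After 3 or more divisions against the control, the log2 changes of these 6 genes were 1.47 (Mybbp1a), 1.63 (Imp4), 1.07 (Utp20), 1.37 (Wdr43), 1.95 (Nop2) and 1.24 (Pes1), so they lie on both sides of the median of the 40 genes.

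Whole windows without CACGTG are given for a pair of genes with large changes, picked after their values were seen, with each GC-box, read on either strand, in capitals. They lie at chr2:129100746-129101045 (plus strand, Polr1b) and chr2:130274162-130274461 (plus strand, Nop56).
Polr1b: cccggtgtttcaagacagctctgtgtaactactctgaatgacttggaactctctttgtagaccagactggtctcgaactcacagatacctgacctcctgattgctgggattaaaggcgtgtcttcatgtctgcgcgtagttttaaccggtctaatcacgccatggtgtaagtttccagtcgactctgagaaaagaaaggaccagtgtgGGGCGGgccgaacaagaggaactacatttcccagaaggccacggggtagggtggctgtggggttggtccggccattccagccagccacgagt
Nop56: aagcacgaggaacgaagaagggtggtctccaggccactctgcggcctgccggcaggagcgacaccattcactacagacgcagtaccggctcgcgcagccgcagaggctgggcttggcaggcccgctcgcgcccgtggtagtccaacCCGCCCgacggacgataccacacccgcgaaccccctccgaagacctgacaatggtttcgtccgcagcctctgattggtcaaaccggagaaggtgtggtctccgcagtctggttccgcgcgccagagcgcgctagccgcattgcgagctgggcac

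Among the genes of RNA polymerase I transcription and the nucleolar hub, all 7 rose after 3 or more divisions, with a median log2 change of 1.47 against the control. Polr1b, the second-largest catalytic subunit of RNA polymerase I, read 6.29 and 6.45 in the control, 7.48 and 7.70 after 0 divisions, 7.31 and 7.83 after 1, 7.66 and 7.73 after 2, and 8.74 and 9.17 after 3 or more. The induced arrays all lay above the control, those of 0, 1 and 2 divisions overlapped each other, and those of 3 or more lay above all others, with a log2 change of 2.58 ± 0.21 (SE) over the control, 6-fold (limma adjusted p = 0.000265). Polr1a, the largest subunit, read 7.63 and 7.71 in the control, 8.24 and 8.42 after 0 divisions, 7.87 and 8.50 after 1, 8.29 and 8.39 after 2, and 9.25 and 9.49 after 3 or more. It showed the same order of groups at a smaller size, 1.70 ± 0.20 over the control (limma adjusted p = 0.000867).

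Ddx21, an RNA helicase that acts on both transcription and processing of ribosomal RNA, read 8.52 and 9.01 in the control, 9.51 and 9.55 after 0 divisions, 9.45 and 9.52 after 1, 9.69 and 9.60 after 2, and 10.16 and 10.40 after 3 or more. The 2 control arrays differed by more than any pair of induced arrays, and the change after 3 or more divisions was 1.52 ± 0.17 (limma adjusted p = 0.000724). Ncl, nucleolin, the abundant nucleolar RNA-binding protein, read 12.03 and 12.04 in the control, 12.87 and 12.80 after 0 divisions, 12.73 and 12.73 after 1, 13.02 and 12.80 after 2, and 13.36 and 13.34 after 3 or more. Its groups were tight, and it was called in all 4 cohorts against the control, with 1.32 ± 0.11 after 3 or more divisions (limma adjusted p = 0.000295) and 0.80 ± 0.11 after 0 (limma adjusted p = 0.0477). Polr1c, a subunit that RNA polymerase III shares, had the smallest change of the step. It read 9.61 and 9.69 in the control, 10.21 and 10.12 after 0 divisions, 10.28 and 10.14 after 1, 10.45 and 10.31 after 2, and 10.54 and 10.62 after 3 or more. Most of its difference of 0.93 ± 0.11 from the control lay between the control and the cohort of 0 divisions, where it was 0.51 ± 0.11 and not called (limma adjusted p = 0.115). Tcof1, the nucleolar phosphoprotein treacle, and Mybbp1a, a nucleolar regulator of ribosomal DNA transcription, rose by 1.44 ± 0.15 and 1.47 ± 0.21 after 3 or more divisions.

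The 8 snoRNP genes had the highest median of the steps, 2.18 after 3 or more divisions against the control, and all 8 rose. The difference between steps was not tested. Dkc1, the pseudouridine synthase dyskerin of the box H/ACA particles, which is also part of telomerase, had the largest change of the 40 genes. It read 8.61 and 8.60 in the control, 10.01 and 10.15 after 0 divisions, 10.14 and 10.26 after 1, 10.21 and 10.43 after 2, and 11.34 and 11.52 after 3 or more. The arrays of 3 or more divisions lay above all others, and the lowest induced array lay above both control arrays, with 2.83 ± 0.13 after 3 or more divisions, 7.09-fold (limma adjusted p = 6.84e-05), and 1.47 ± 0.13 after 0 (limma adjusted p = 0.0123).

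Nop56, a core protein of the box C/D particles, read 9.31 and 9.55 in the control, 10.44 and 11.06 after 0 divisions, 10.17 and 11.24 after 1, 10.49 and 11.09 after 2, and 11.83 and 12.06 after 3 or more. On replicate 2 it was higher than on replicate 1 in every group, and its standard error was the widest of the 40 genes, so the change of 2.51 ± 0.37 after 3 or more divisions was called (limma adjusted p = 0.00204) while 1.32 ± 0.37 after 0 was not (limma adjusted p = 0.202, and 0.016 with the replicate block). Nop58, its partner in the same particles, read 9.75 and 9.47 in the control, 10.57 and 10.23 after 0 divisions, 10.30 and 10.25 after 1, 10.41 and 10.21 after 2, and 11.03 and 11.08 after 3 or more. Here replicate 1 was the higher array in every group but that of 3 or more divisions, and the change after 3 or more divisions was 1.44 ± 0.16 (limma adjusted p = 0.000631).

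Nolc1, the phosphoprotein that links snoRNPs with the nucleolus and Cajal bodies, read 7.74 and 7.72 in the control, 8.83 and 9.03 after 0 divisions, 8.48 and 8.93 after 1, 8.68 and 8.79 after 2, and 9.97 and 10.30 after 3 or more. The arrays after 2 divisions lay below those after 0 and far below those of 3 or more, which were 2.40 ± 0.18 above the control (limma adjusted p = 0.000225). Nop10, the smallest protein of the H/ACA core, read 11.99 and 11.68 in the control, 12.49 and 12.41 after 0 divisions, 12.22 and 12.32 after 1, 12.30 and 12.43 after 2, and 12.91 and 13.19 after 3 or more. It had the smallest change of the step, 1.22 ± 0.15 (limma adjusted p = 0.000937), with no overlap between the control and any induced group. Fbl, the methyltransferase fibrillarin of the box C/D particles, rose by 2.25 ± 0.14 after 3 or more divisions and by 1.19 ± 0.14 after 0 (limma adjusted p = 0.0438). The other H/ACA proteins, Nhp2 and Gar1, rose by 2.11 ± 0.25 and 1.51 ± 0.14 after 3 or more divisions.

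Of the small subunit factors all 12 rose after 3 or more divisions, with a median log2 change of 1.51 against the control. Rcl1, a cyclase-like protein of the small subunit processome in yeast, read 7.62 and 8.05 in the control, 8.77 and 9.07 after 0 divisions, 8.58 and 9.14 after 1, 8.93 and 9.11 after 2, and 9.86 and 10.34 after 3 or more. Replicate 2 was the higher array in each group, and the groups of 3 or more divisions and of the control were apart from all others, with 2.26 ± 0.25 between them, 4.80-fold (limma adjusted p = 0.000703). Rrp9, a protein of the U3 snoRNP, read 7.10 and 7.63 in the control, 7.81 and 8.21 after 0 divisions, 7.57 and 8.31 after 1, 7.90 and 8.13 after 2, and 8.91 and 9.45 after 3 or more. One array after 1 division lay within the range of the control, and the change after 3 or more divisions was 1.82 ± 0.31 (limma adjusted p = 0.00359). Nat10, which acetylates cytidines of the small subunit RNA, read 7.30 and 7.30 in the control, 7.82 and 7.86 after 0 divisions, 7.59 and 7.97 after 1, 7.89 and 8.07 after 2, and 8.86 and 9.12 after 3 or more. All its induced arrays lay above the control, by 1.69 ± 0.16 after 3 or more divisions (limma adjusted p = 0.000392).

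Utp15, which acts in the processome and in ribosomal DNA transcription, read 7.52 and 7.30 in the control, 7.83 and 7.78 after 0 divisions, 7.74 and 7.83 after 1, 7.81 and 7.98 after 2, and 8.35 and 8.59 after 3 or more. The cohorts of 0, 1 and 2 divisions overlapped each other, and the change after 3 or more was 1.06 ± 0.13 (limma adjusted p = 0.00115). Wdr75, of the same subcomplex, had the smallest change of the step, 0.88 ± 0.13 (limma adjusted p = 0.00211). It read 10.02 and 9.96 in the control, 10.50 and 10.23 after 0 divisions, 10.48 and 10.31 after 1, 10.48 and 10.34 after 2, and 10.92 and 10.82 after 3 or more. The other 7 genes of the step lay between these in change: the processome components Nop14 (1.46 ± 0.22), Imp4 (1.63 ± 0.18), Utp20 (1.07 ± 0.22), Heatr1 (1.55 ± 0.19) and Wdr43 (1.37 ± 0.17), Rrp12, a factor of late maturation and export (1.58 ± 0.26), and Nob1, the nuclease that trims the end of the small subunit RNA (1.27 ± 0.12). Utp20 was no longer called without replicate 1 of the control (0.87, limma adjusted p = 0.0536) or replicate 2 of 3 or more divisions (0.87, limma adjusted p = 0.0687).

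Of the large subunit factors all 13 rose after 3 or more divisions, with a median log2 change of 1.46 against the control. Nop16, a nucleolar protein of early large subunit particles, read 8.43 and 8.61 in the control, 9.81 and 9.89 after 0 divisions, 9.29 and 9.79 after 1, 9.87 and 9.51 after 2, and 10.66 and 10.99 after 3 or more. Its induced arrays all lay above the control, and the change was 2.31 ± 0.21 after 3 or more divisions (limma adjusted p = 0.000361) and 1.33 ± 0.21 after 0, which was not called (limma adjusted p = 0.0536, and 0.0146 with the block). Rrp1b, a nucleolar processing factor, read 7.21 and 7.38 in the control, 8.10 and 8.10 after 0 divisions, 8.15 and 8.33 after 1, 8.50 and 8.45 after 2, and 9.40 and 9.68 after 3 or more. Its group means stood in the order of the divisions with no overlap between neighbouring groups, and it rose by 2.25 ± 0.13 after 3 or more divisions (limma adjusted p = 0.000157). Wdr12, which forms the PeBoW complex with Pes1 and Bop1, read 8.39 and 8.64 in the control, 9.76 and 9.82 after 0 divisions, 9.53 and 9.95 after 1, 9.77 and 9.89 after 2, and 10.55 and 10.76 after 3 or more. It was called in all 4 cohorts against the control, with 2.14 ± 0.17 after 3 or more divisions (limma adjusted p = 0.000242) and 1.28 ± 0.17 after 0 (limma adjusted p = 0.0452).

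Noc3l, whose yeast counterpart moves large subunit precursors through the nucleus, was the least separated gene of the step. It read 7.65 and 7.78 in the control, 7.64 and 8.27 after 0 divisions, 7.76 and 8.37 after 1, 7.99 and 8.10 after 2, and 8.64 and 8.96 after 3 or more. The arrays of 0 and of 1 division overlapped the control, and the change of 1.09 ± 0.26 after 3 or more divisions (limma adjusted p = 0.0161) was no longer called without replicate 1 of the control (1.03, limma adjusted p = 0.076) or replicate 2 of 3 or more divisions (0.93, limma adjusted p = 0.111). Npm1, nucleophosmin, a nucleolar chaperone of ribosomal proteins, had the smallest change of the 40 genes. It read 12.89 and 12.85 in the control, 13.31 and 13.30 after 0 divisions, 13.38 and 13.40 after 1, 13.48 and 13.37 after 2, and 13.57 and 13.53 after 3 or more. Its arrays were close within each group, so that 0.68 ± 0.10, 1.60-fold, was called (limma adjusted p = 0.00193).

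The PeBoW partners of Wdr12 also rose after 3 or more divisions, Bop1 by 1.80 ± 0.28 and Pes1 by 1.24 ± 0.18, and the differences between the 3 genes were not tested. The RNA methyltransferase gene Nop2 rose by 1.95 ± 0.30 and Noc2l, the partner of Noc3l in yeast, by 1.89 ± 0.19. Rrs1 (1.46 ± 0.14), Ebna1bp2 (1.45 ± 0.20) and Nip7 (1.27 ± 0.13), assembly factors of the large subunit, and the nucleolar GTPase nucleostemin, Gnl3 (1.15 ± 0.14), completed the step.

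**Figure D2:**
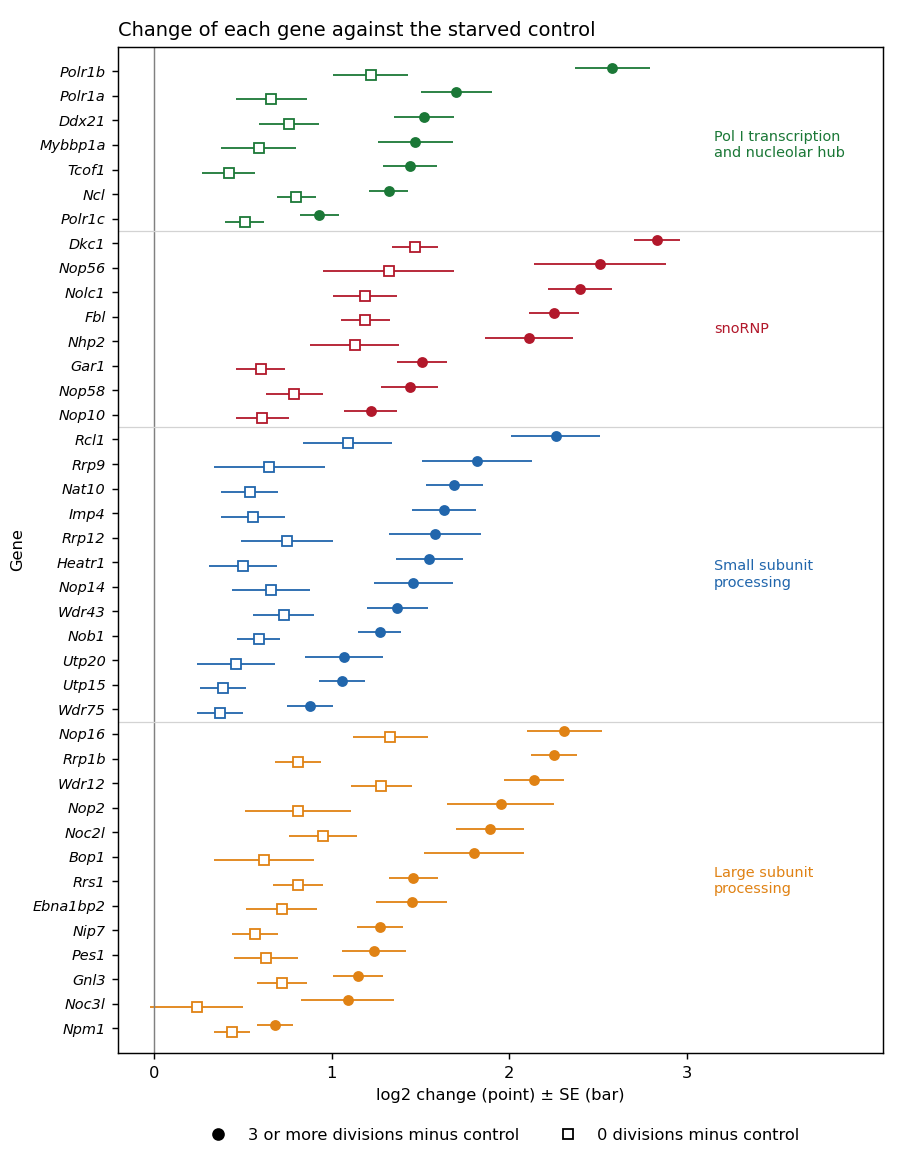
Log2 change against the control (across) of the 40 genes (down, coloured by step), with filled circles for 3 or more divisions and open squares for 0 divisions, and bars of 1 SE from limma. All circles lie right of 0, from 0.68 for Npm1 to 2.83 for Dkc1, and each lies right of its gene's square, which range from 0.24 for Noc3l to 1.47 for Dkc1.

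The cohort with a mean of 0 divisions lay above the control in most of these genes. On both of its arrays 39 of the 40 genes were above both control arrays, with Noc3l the exception, where 21.4% of all genes were so placed. The median log2 change was 0.69, against 0 over all genes, and step medians were 0.66 for the RNA polymerase I genes, 1.16 for snoRNPs, 0.58 for the small and 0.72 for the large subunit factors. Calls were made for 4 genes, Dkc1, Fbl, Ncl and Wdr12, where 0.22% of all genes were called higher. With the replicate block 24 passed, where 2.36% of all genes did, and some of the 4 calls were lost with any 1 array left out. Of the 36 genes not called without the block, the 4 widest changes were those of Nop16 (1.33 ± 0.21), Nop56 (1.32 ± 0.37), Polr1b (1.22 ± 0.21) and Nolc1 (1.19 ± 0.18, with a limma adjusted p that rounds to 0.05).

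After 1 division the log2 change against the control was above 0 for all 40 genes, where it was for 9246 of all 18193 genes, and 7 of the 40 were called higher. These 7 were Dkc1 (1.60 ± 0.13), Wdr12 (1.22 ± 0.17), Polr1b (1.20 ± 0.21), Fbl (1.03 ± 0.14), Rrp1b (0.95 ± 0.13), Rrs1 (0.80 ± 0.14) and Ncl (0.70 ± 0.11). Their background was 0.94% of all genes called higher, and with the block 28 genes passed against 4.47% of all genes. Some of the 7 calls were lost with any 1 array left out. The median log2 change of the 40 genes was 0.58. Arrays of 37 genes were apart from the control, against 22% of all genes, and those of Rrp9, Rrp12 and Noc3l overlapped it. Replicate 1 of this cohort read low, with 4 of the 40 genes higher there than on replicate 2 and a median difference of -0.40 between replicates 1 and 2.

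After 2 divisions the log2 change against the control was above 0 for all 40 genes, where it was for 9263 of all 18193 genes. Of the 40 genes 21 were called higher, against 4.07% of all genes, and 37 with the block, against 9.11%. Most of the 21 calls were lost without any 1 array of the control or of 2 divisions, fits in which 1 array stands for its group. In these fits the log2 changes of the 40 genes kept their sign. The 3 genes not called with the block were Rrp12 (0.48 ± 0.26), Noc3l (0.33 ± 0.26) and Ebna1bp2 (0.57 ± 0.20). Arrays of all 40 genes were apart from the control, against 26.7% of all genes, and the median log2 change was 0.71. Of the steps, 5 of 7 RNA polymerase I genes, 6 of 8 snoRNP genes, 3 of 12 small subunit and 7 of 13 large subunit genes were called. With the block these counts were 7, 8, 11 and 11. Dkc1 had the largest change, 1.71 ± 0.13, followed by Nop56 (1.36 ± 0.37, not called), Polr1b (1.33 ± 0.21) and Wdr12 (1.32 ± 0.17). All comparisons with the control share its 2 arrays.

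**Figure D3:**
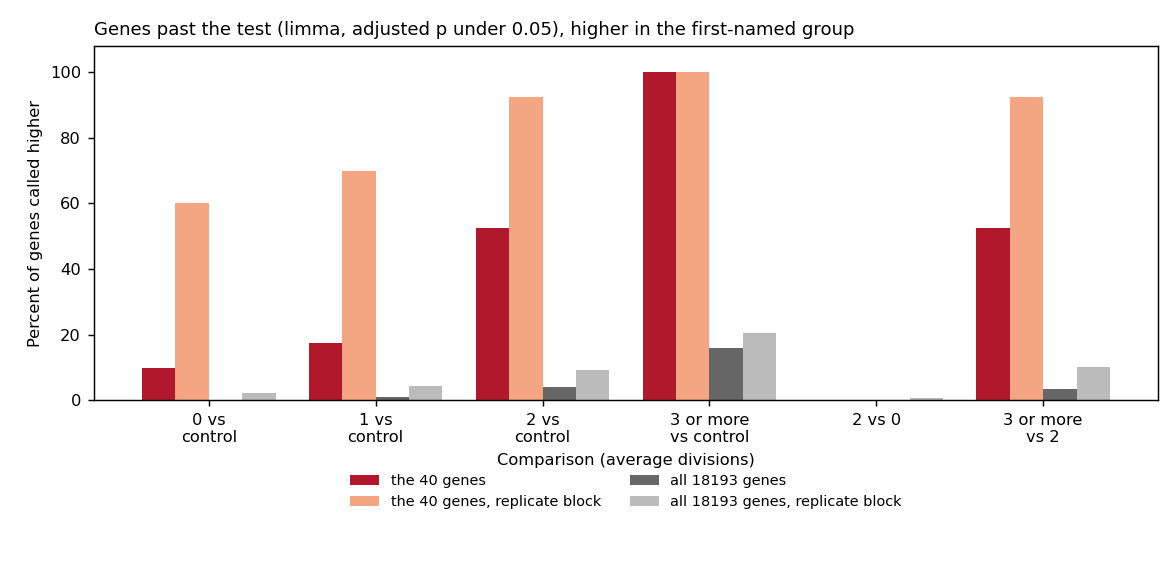
Percent of genes called higher by limma (adjusted p under 0.05; up the page) in 6 comparisons (across), for the 40 genes without and with the replicate block and for all 18193 genes without and with it. All 40 genes are called for 3 or more divisions against the control and none for 2 divisions against 0, where 0.055% of all genes are.

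The induced cohorts of 0, 1 and 2 divisions lie within a set. Among them, 2 divisions were compared with 0 and a slope was fitted over all of them, with no call for the 40 genes. The cohort of 1 division was not compared singly with that of 0 or of 2. For 2 divisions against 0 limma called 0 of the 40 genes in either direction, with or without the block, and 1 had an unadjusted p under 0.05. Over all genes 0.055% were called higher and 0% lower, or 0.748% and 0.379% with the block, and 1412 had an unadjusted p under 0.05. The median log2 change was 0.05, with 27 genes above 0 and 13 below, and a range of -0.27 to 0.37. Of all 18193 genes 9425 were above 0. The 95% confidence intervals of single genes included 0 for 39 of 40. The lowest bound was -0.87, for Rrp12, and the highest 0.89, for Nop56. The interval of Nop56 ran from -0.81 to 0.89, so changes of either sign within it were not excluded for this gene. Arrays of 26 genes overlapped, those of 11 were higher after 2 divisions (20.2% of all genes) and those of Nolc1, Rrp12 and Wdr43 were lower (17.2% of all genes).

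Rrp1b was the gene with an unadjusted p under 0.05, at 0.37 ± 0.13 (limma adjusted p = 0.542). The slope over 0, 1 and 2 divisions had a median of 0.03 per division. It was called for 0 of the 40 genes and for 0% of all genes, and 2 of the 40 genes and 1561 of all genes had an unadjusted p under 0.05. Those 2 were Rrp1b (0.19 ± 0.06 per division) and Tcof1 (0.14 ± 0.05). With the block the slope was called for 0 of the 40 genes, and for 1.35% of all genes upward and 0.819% downward. The group means of 9 of the 40 genes ran upward through 0, 1 and 2 divisions, which 23.7% of all genes did. The same 9 genes ran upward through all 5 groups from the control on, which 7.67% of all genes did: Polr1c, Tcof1, Dkc1, Wdr75, Imp4, Npm1, Nop2, Bop1 and Rrp1b.

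**Figure D4:**
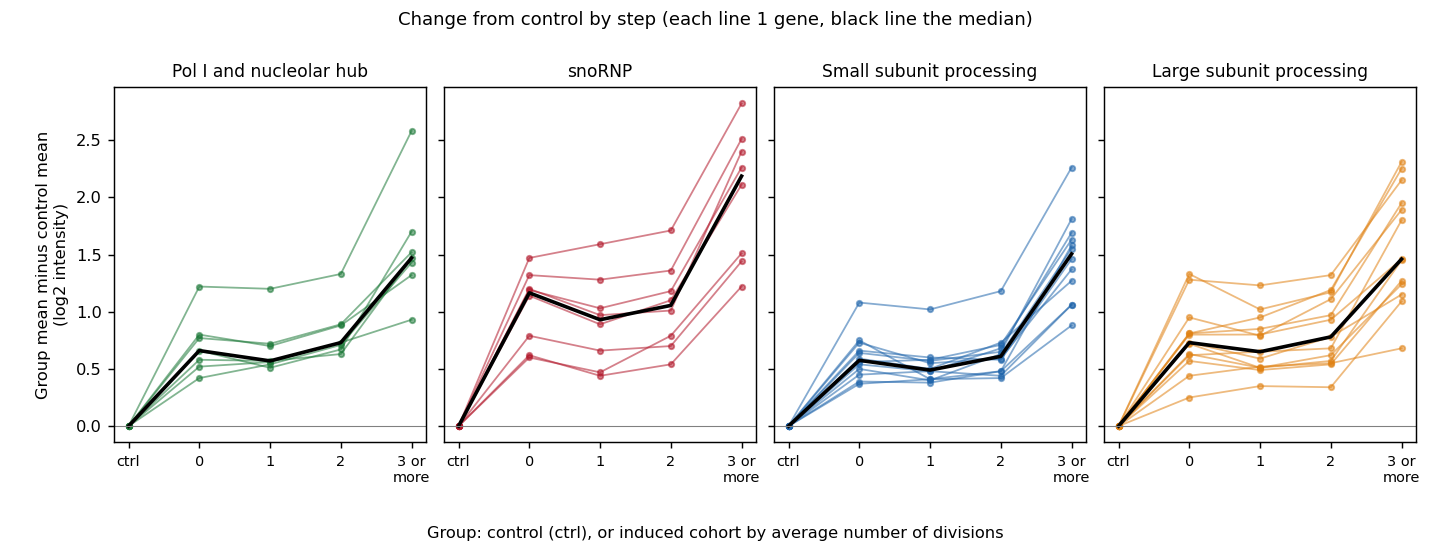
Group mean minus control mean in log2 intensity (up) for the control and the 4 induced cohorts by average divisions (across), in 4 panels by step, with a line per gene and the step's median in black. Medians are nearly level from 0 to 2 divisions and higher at 3 or more, where they reach 1.47, 2.18, 1.51 and 1.46 in the order of the panels.

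After 3 or more divisions 21 of the 40 genes were called higher than after 2, against 3.46% of all genes, and 37 with the block, against 10.1%. The median log2 change was 0.83, the range 0.13 to 1.40, and arrays of all 40 genes were apart, against 30.8% of all genes. The medians by step were 0.72 for RNA polymerase I genes, 1.04 for snoRNPs, 0.90 for small and 0.78 for large subunit factors. Nolc1 had the largest change (1.40 ± 0.18, limma adjusted p = 0.017), then Polr1b (1.26 ± 0.21, limma adjusted p = 0.0269). Npm1 (0.13 ± 0.10), Polr1c (0.20 ± 0.11) and Gnl3 (0.37 ± 0.14) were the genes not called with the block. The count rested on single arrays and fell without any 1 array of either group, a fit in which 1 array stands for its group. In these fits the log2 changes of the 40 genes kept their sign. As these groups belong to different sets of arrays, the step between them cannot be told apart from the set.

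The rest of the pathway was read from 122 further biogenesis genes, of which 116 were measured. After 3 or more divisions the change against the control was above 0 for 114 of the 116, with a median log2 change of 1.04. It was above 0 for 9615 of all 18193 genes. Of the 116, 91 were called higher and 0 lower. Over all genes 15.9% were called higher and 11.7% lower, which is the background of each list below. With the block 97 were called higher and 1, Sbds, lower (-0.38 ± 0.13, limma adjusted p = 0.0464). With it 3720 of all 18193 genes were called higher and 3149 lower. Of 45 large subunit factors 38 were called higher (median 1.10), among them Rpf2 (1.77 ± 0.14), Ddx27 (1.66 ± 0.28) and Ppan (1.64 ± 0.16). Of 38 small subunit factors 31 were called higher (median 0.94), among them Utp14a (1.88 ± 0.30), Noc4l (1.81 ± 0.21) and Pdcd11 (1.79 ± 0.27). Among 8 snoRNP assembly factors 6 were called higher (median 1.39). The chaperone ATPase gene Ruvbl2 changed by 2.04 ± 0.24, and the dyskerin chaperone genes Shq1 and Naf1 by 1.98 ± 0.21 and 1.65 ± 0.12. Of 9 other RNA polymerase I genes 6 were called higher (median 0.62). The subunit gene Polr1e changed by 2.29 ± 0.35, and the promoter factor genes Taf1d and Taf1c by 1.76 ± 0.16 and 1.31 ± 0.25. Among 16 exosome and spacer nuclease genes 10 were called higher (median 0.81), led by Eri1 (1.52 ± 0.11), Exosc7 (1.46 ± 0.21) and Exosc5 (1.44 ± 0.24).

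Genes of the finished ribosome itself were read as well. Of 78 listed cytosolic ribosomal protein genes 44 could be measured. After 3 or more divisions their change was above 0 for 39 and below 0 for 5, with a median log2 change of 0.18. Of all 18193 genes 9615 were above 0 and 8578 below. Of the 44 genes 9 were called higher and 0 lower. That share is near the 15.9% of all genes called higher in this comparison. The 3 largest were Rpl14 (1.50 ± 0.19), Rpl12 (1.10 ± 0.16) and Rps25 (1.09 ± 0.11). These 3 were read by dimmer probe sets, with mean levels over the 10 arrays of 8.71, 8.64 and 9.33. The median level of the list was 13.9. The part of brightness in the small changes of the list, and in the larger ones of these 3 genes, was not tested. Of 10 RNA polymerase III core subunits 6 were called higher (median 0.71). Polr3g, a subunit known from pluripotent cells, read 4.98 and 5.27 in the control, 6.50 and 6.91 after 0 divisions, 6.48 and 6.98 after 1, 7.37 and 7.25 after 2, and 8.54 and 8.92 after 3 or more. It was called in all 4 cohorts against the control, by 3.60 ± 0.23 after 3 or more divisions (limma adjusted p = 0.000179) and by 1.57 ± 0.23 after 0 (limma adjusted p = 0.0496).

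Proliferation genes moved beside these lists. After 3 or more divisions 21 of 29 DNA replication genes (median 1.22) and 27 of 28 mitosis genes (median 1.81) were called higher than the control. So were all 40 biogenesis genes (median 1.51) and 15.9% of all genes. In the cohort of 0 divisions the medians against the control were 0.61 for DNA replication, with 1 of 29 genes called, and 1.11 for mitosis, with 1 of 28 called, where 0.22% of all genes were called higher. With the block, 9 DNA replication and 22 mitosis genes were called, where 2.36% of all genes were. For 3 or more divisions against 2 they were 0.54 and 0.50, and 0.83 for the 40 genes. Differences between the lists were not tested, and the part of cell cycle state in the biogenesis genes was not tested.

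**Figure D5:**
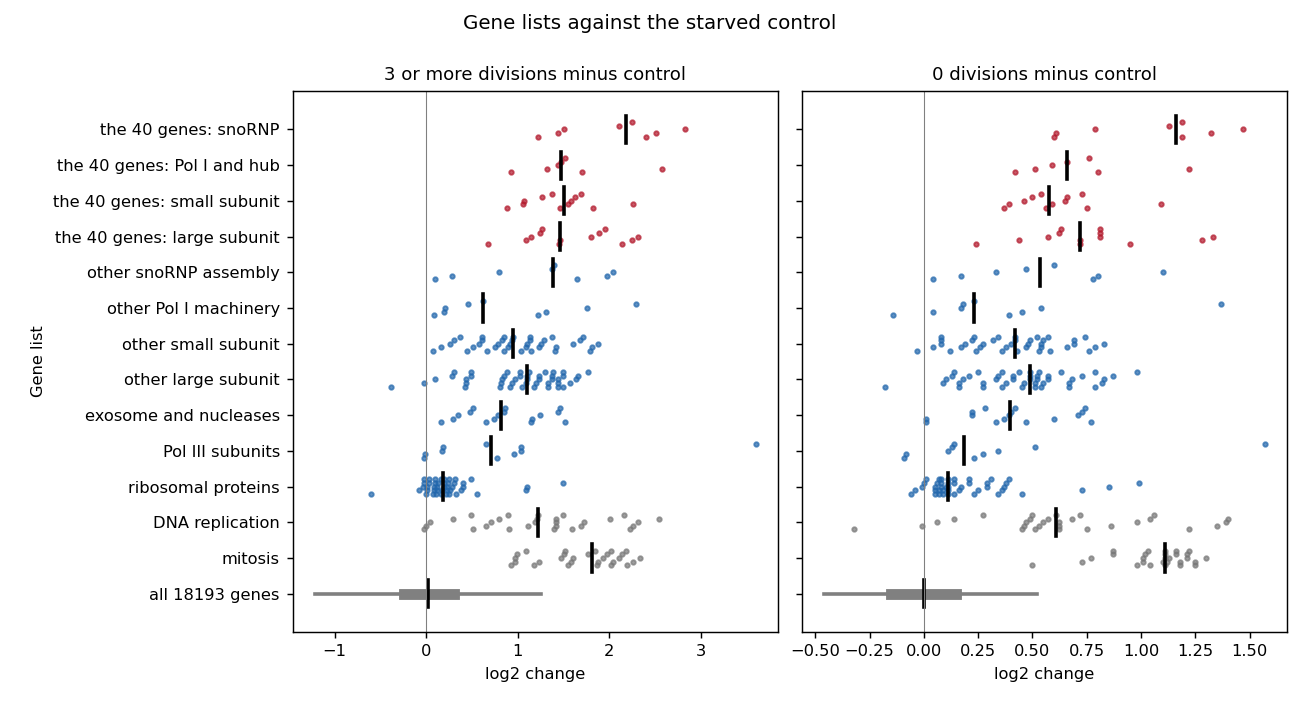
Log2 change (across) of single genes in 13 lists (down) after 3 or more divisions against the control on the left and after 0 divisions against the control on the right, with a bar at each list's median and, for all genes, a thin line from the 5th to the 95th and a thick one from the 25th to the 75th percentile; the panels have different scales. Medians of the 4 steps lie at 1.46 to 2.18 on the left, and that of the ribosomal proteins at 0.18.

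Further probe sets of the same genes, which the rule did not choose, gave a second reading on the same arrays for 29 of the 40 genes. Of these 43 probe sets 39 lay above both control arrays on both arrays of 3 or more divisions, 34 were called higher and 0 lower. Over all genes, each read by its chosen probe set, 34.6% were so placed and 15.9% called higher. The 39 include dim probe sets with small changes. Among these were 2 of Polr1a, at mean levels of 3.01 and 3.03, which changed by 0.13 and 0.17 and were not called. For Dkc1 they changed by 2.34 and 2.41, beside 2.83 for the chosen one, and for Ddx21 by 2.51, beside 1.52. The 4 that overlapped the control belonged to Nat10, Bop1, Wdr12 and Pes1. Those of Nat10, Bop1 and Wdr12 were under 5.05, the median of all probe sets, and the second probe set of Pes1, which was not, changed by -0.07, beside 1.24 for the chosen one. Of the chosen probe sets 5 carry the suffix for sets that may match several transcripts of a family and 1, that of Rrs1, the suffix for sets with probes that may match unrelated sequences. The other probe set of Rrs1 changed by 1.55, beside 1.46.

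Markers of cell type and RNA measures also differed between these groups. The cells carried fibroblast markers, with a summed level of 16.06 to 16.26 after 3 or more divisions and of 16.72 to 16.75 in the control. Of these 9 markers 6 were called lower. Epithelial markers summed to 11.92 to 11.96 after 3 or more divisions and to 7.77 in the control, and 4 of 8 were called higher (Cdh1, Krt8, Krt19 and Krt14). Macrophage markers summed to 8.70 to 8.90 after 3 or more divisions and to 8 to 8.03 in the control, with Cd68 higher, Lyz2 lower, and the leukocyte gene Ptprc at 3.56 and 4.12 after 3 or more divisions and 3.74 and 3.75 in the control. Endothelial markers summed to 8.67 to 8.87 after 3 or more divisions and to 8.08 to 9.39 in the control. Of the 6, Tek was called higher (2.44), Flt1 (-2.03) and Kdr (-0.55) were called lower, and 3 were not called, with Pecam1 at 3.77 and 3.55 after 3 or more divisions and 3.44 and 3.56 in the control.

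The 3′ probe set of Actb exceeded its 5′ probe set by 0.49 and 0.50 after 3 or more divisions and by 0.26 and 0.26 in the control, and that of Gapdh by 0.27 and 0.26 after 3 or more divisions and by 0.06 and 0.03 in the control. The array also holds 3 control probe sets that read 18S ribosomal RNA, added here with the other values in view. Its 5′ probe set read 10.75 and 10.58 after 3 or more divisions and 13.04 and 12.40 in the control, while the middle one read 9.76 and 10.08 after 3 or more divisions and 9.66 and 9.46 in the control, and the 3′ one 9.68 and 9.95 after 3 or more divisions and 9.44 and 9.20 in the control. The part of these marker, RNA quality and ribosomal RNA differences in the results on the 40 genes was not tested.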

How the data were processed

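Labelled RNA of 10 samples was read on Affymetrix arrays. The authors deposited a table of intensity on a linear scale, 5.7 to 26572, for 45101 probe sets. RMA was used, per the submitters' processing notes, for the 4 arrays of the control and of 3 or more divisions, and none is named there for the other 6. Of the probe sets, 64 were controls, 34945 had 1 gene symbol in the platform's annotation, 932 had several and 9211 were not listed. The RefSeq table held the gene ID of 34741 of the 34945 and changed 0 symbols.

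A floor of 1 was set, which moved 0 values, followed by log2 and quantile normalization of the 10 arrays. The brightest probe set stood for its gene. No detection calls were given, and all 40 genes passed a filter at the median of all genes. A model with 5 groups was fitted to all 10 arrays with limma 3.58.1 in R 4.3.3 (lmFit and eBayes, 5 residual degrees of freedom, 4 for the slope), two-sided, with Benjamini-Hochberg adjustment over 18193 genes. The fit was tested on simulated data. Members and gene lists were chosen with earlier results of these data known.

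Values on each array are given for the 3 largest and the 2 smallest changes of a step, and of each further list the 3 largest called genes are named. Whether replicate numbers pair arrays was tested by correlation after group means were taken off. Arrays with the same number had correlations of 0.477 to 0.872 over the 10 pairs of groups, each over 0.1. The main fit nevertheless held no replicate term, so its SEs, adjusted p-values and calls ignore this pairing. Values with the replicate number as a block come from a second fit. Alternatives were another normalization, a floor of 16, the mean over probe sets, brighter genes only, only the arrays compared, a fixed or random replicate block and leaving out each array. Motifs were searched as exact letters. The 6 genes with no promoter window were Tcof1, Fbl, Rrp12, Npm1, Bop1 and Rrs1.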

Additional observations from a re-analysis of the deposited data

Results flagged for a closer look

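The second reading of the genes, from probe sets that the rule for choosing 1 probe set per gene passed over, is singled out because it is signal outside the main measurement. It comes from the same RNA on the same arrays, so it is not independent of that measurement. Of 43 such probe sets, 39 lay above both control arrays on both arrays of 3 or more divisions. Of all genes, each read by its chosen probe set, 34.6% did. Of the 34 at or above the median of all probe sets, 33 did so, and the exception was the second probe set of Pes1, at 6.65 and 6.63 after 3 or more divisions and 6.53 and 6.90 in the control.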

How the results depend on the processing

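The 40 genes stayed called for 3 or more divisions against the control under each of the 8 settings other than leaving out a single array, the replicate block among them, and the medians lay between 1.45 and 1.63. Leaving out 1 array gave 38 to 40 calls and a median of 1.40 to 1.66. For 2 divisions against the control, 21 genes were called, 2 with only the arrays compared, 37 with the replicate block and 33 with a random block. Over all 18193 genes these counts were 1114, 86, 2827 and 2124. Calls were lost without any 1 array of either group, and medians with 1 array left out were 0.68 to 0.80. For 1 division, 7 became 4 with the mean over probe sets, 0 with only the arrays compared, 28 with the replicate block and 19 with a random block. The 226 calls over all genes became 153, 0, 1277 and 731 in these settings. With 1 array left out calls were lost, and medians were 0.45 to 0.79. For 0 divisions, 4 became 7 among brighter genes, 0 with only the arrays compared, 24 with the replicate block and 17 with a random block. With the replicate block 2.36% of all genes were called higher, against 0.22% without it. Leaving out 1 array lost calls, and medians were 0.57 to 0.81. For 2 divisions against 0, the replicate block and each other setting left 0 calls, and the median was 0.00 to 0.10 with 1 array left out, 0 without replicate 1 of 0 divisions, where its sign turned. The slope likewise had 0 calls in each setting, with medians of 0.00 to 0.06 with 1 array left out. For 3 or more divisions against 2, 21 became 8 with a floor of 16, 37 with the replicate block, 37 with a random block and 0 to 25 with 1 array left out, and the median of 0.83 was 0.66 with the mean over probe sets and 0.72 to 0.94 with 1 array left out. Fits of only the arrays compared hold fewer arrays, and the causes of the other shifts were not tested. Centring arrays on their medians in place of quantile normalization shifted the median of all genes by up to 0.09. A lone array left in a group was assumed to vary like the other groups. Group sizes of 2 arrays, the registered sets and unknown detection limits bound what these values show.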

Other observations

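Polr3gl, the paralogue of Polr3g that takes its place in the same subcomplex of RNA polymerase III, was picked after its values were seen. It changed by -0.01 ± 0.36 after 3 or more divisions against the control (limma adjusted p = 0.991), beside 3.60 ± 0.23 for Polr3g. Its change was 0.40 ± 0.36 for 2 divisions against 0 (limma adjusted p = 0.891). For 3 or more divisions against 2 it was -0.54 ± 0.36 (limma adjusted p = 0.435), which was called lower with the replicate block (-0.54 ± 0.16, limma adjusted p = 0.0462).

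Of the 45 further large subunit factors, Sbds, the factor that frees the new large subunit for translation, had the lowest change after 3 or more divisions against the control, -0.38 ± 0.14 (limma adjusted p = 0.0789). With the replicate block it was called lower (limma adjusted p = 0.0464).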
